A study of Mus musculus with 8 samples.

Results

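The regions described here are the 6475 open-chromatin peaks that lay between genes and that the authors' peak lists named under IL-33 but not under vehicle, out of 104981 peaks in all (6.17%). They were chosen by 2 entries of the deposited peak table, the text naming the peak lists and the genomic annotation. They made up part of the 19758 peaks listed only under IL-33 and of the 33223 intergenic peaks. ATAC-seq, which maps accessible DNA by letting a transposase cut it and add adapters, was run on microglia collected by flow cytometry from the cortex of mice at postnatal day 30. One group of 4 mice had received interleukin-33 (IL-33) into the cerebral ventricle on one side, the other group of 4 mice had received vehicle, and both were killed 4 h later; each group had 2 females. All 8 mice thus shared the injection itself, and no uninjected group was analysed here. The labels give no strain, genotype or dose, and the study's title places the work in IL-33 and pattern recognition by microglia.

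IL-33 is an alarmin of the interleukin-1 family. It binds a receptor made of ST2 (gene Il1rl1) and the shared accessory protein, which act through MyD88 and IRAK kinases to release NF-kB and to switch on the MAP kinases that feed AP-1. Intergenic open sites in macrophages are largely enhancers and other elements distant from promoters; sites that open after a stimulus, where the factors that mark the lineage had been little bound before, are often called latent or de novo enhancers. The nearest start site, used here to assign each peak to a gene, is a distance and does not show that the peak acts on that gene.

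The letters of 54 of these peaks could be read from RefSeq promoter windows (GRCm38.p6), because 55 windows of 300 bases (250 before and 50 after a start) overlapped them by at least 50 bases. These were peaks annotated as intergenic in the deposited table that lay at starts known to RefSeq, the windows belonging to 46 long non-coding RNA genes and 8 protein-coding genes. Shown here are the 6 with the largest log2 differences among those with at least 100 bases inside a window, all on the plus strand. Capitals mark matches to the searched motifs: for NF-kB the letters GGNNTTTCC or its longer consensus, for AP-1 TGACTCA and for C/EBP TTGCNNAA, each on both strands. The NF-kB forms can overlap.
LOC115488765 (chr17:86950198-86950410): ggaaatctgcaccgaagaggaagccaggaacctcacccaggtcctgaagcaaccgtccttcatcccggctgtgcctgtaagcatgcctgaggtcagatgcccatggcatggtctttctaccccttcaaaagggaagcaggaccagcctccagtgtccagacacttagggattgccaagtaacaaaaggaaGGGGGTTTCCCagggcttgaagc
Gm51868 (chr11:83667107-83667345): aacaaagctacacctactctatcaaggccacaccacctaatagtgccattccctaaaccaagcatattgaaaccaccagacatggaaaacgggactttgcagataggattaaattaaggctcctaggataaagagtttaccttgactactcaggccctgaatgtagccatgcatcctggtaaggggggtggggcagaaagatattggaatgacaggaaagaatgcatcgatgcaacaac
Gm9875 (chr2:13558653-13558916): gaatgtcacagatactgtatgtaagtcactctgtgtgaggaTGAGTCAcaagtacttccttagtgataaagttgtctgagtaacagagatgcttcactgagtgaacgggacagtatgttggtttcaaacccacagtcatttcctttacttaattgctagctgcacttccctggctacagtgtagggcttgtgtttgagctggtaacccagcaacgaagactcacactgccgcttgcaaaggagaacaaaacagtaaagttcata
1110002O04Rik (chr1:35869698-35869934): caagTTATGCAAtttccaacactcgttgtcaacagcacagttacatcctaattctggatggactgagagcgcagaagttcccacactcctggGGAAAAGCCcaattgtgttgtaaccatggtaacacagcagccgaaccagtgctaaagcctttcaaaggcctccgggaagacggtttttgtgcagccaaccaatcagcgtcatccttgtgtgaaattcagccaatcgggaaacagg
Gm36897 (chr6:136463507-136463724): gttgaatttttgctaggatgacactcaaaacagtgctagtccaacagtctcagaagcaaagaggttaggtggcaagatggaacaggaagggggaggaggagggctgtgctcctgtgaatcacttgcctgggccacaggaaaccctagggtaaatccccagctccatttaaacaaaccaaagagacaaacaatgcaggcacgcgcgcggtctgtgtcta
Gm33424 (chr13:52985774-52986014): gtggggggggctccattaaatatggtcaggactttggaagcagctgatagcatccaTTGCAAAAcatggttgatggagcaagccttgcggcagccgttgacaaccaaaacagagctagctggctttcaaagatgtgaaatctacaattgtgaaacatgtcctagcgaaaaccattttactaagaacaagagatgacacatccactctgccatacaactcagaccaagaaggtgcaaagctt

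The first of these sequences, 213 bases of the peak assigned to Atp6v1e2, carried 1 NF-kB match of the 9-letter form and 2 overlapping matches of the longer form. Its peak held 2.56, 1.98, 3.65 and 2.09 scaled tags, in library order, in the vehicle group and 62.2, 32.5, 39.6 and 56.5 in the IL-33 group. Scaled tags come from the reads counted in the peak, set to 10000000 tags per library. Depending on the library, 1 read was worth 0.114 to 0.1395 scaled tags. The groups did not overlap, and the lowest IL-33 library stood far above every vehicle library.

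The Gm51868 sequence came from the peak nearest to Ccl4, a chemokine that draws monocytes and T cells, and it held no match to the motifs searched. Its peak had 0.26, 0.00, 1.25 and 0.14 tags in vehicle and 11.7, 5.07, 9.55 and 9.0 in IL-33. The Gm9875 sequence held 1 AP-1 match, and its peak had 3.07, 3.17, 2.74 and 2.37 tags in vehicle and 27.5, 9.43, 19.6 and 33.6 in IL-33. Neither pair of groups overlapped, and IL-33 library 2 was the lowest of its group at both.

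The 1110002O04Rik sequence held 1 NF-kB match and 1 C/EBP match, and its peak went with 2.17, 1.06, 2.51 and 1.81 tags in vehicle and 15.04, 12.97, 10.7 and 23.6 in IL-33. The Gm33424 sequence, from the peak assigned to Nfil3, a bZIP transcription factor of immune cells, held 1 C/EBP match. That peak had 1.28, 0.79, 0.91 and 1.39 tags in vehicle and 13.5, 8.02, 7.01 and 9.89 in IL-33. The Gm36897 sequence held no match, and its peak had 2.74 ± 0.679 tags in vehicle and 20.8 ± 10.3 in IL-33 (SD, n = 4 each). At these 3 peaks every IL-33 library lay above every vehicle library.

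Over the 55 windows, the 9-letter NF-kB form was found in 7 (12.7%), against 5.82% of all 32851 RefSeq windows of the same length. The C/EBP form was found in 13 (23.6%), against 10.8%, and the AP-1 form in 5 (9.09%), against 5.20%. The longer NF-kB consensus was found in 2 (3.64%), below its 4.51% of all windows. Of the other motifs searched on both strands, the PU.1 form GAGGAAGT stood in 1.82% of the 55 windows against 3.20% of all, and the MAF half-site TGCTGAC in 3.64% against 4.67%. The IRF form GAAANNGAA stood in 12.7% against 8.56%, the PU.1-IRF form GGAANNGAA in 14.5% against 8.24% and the RUNX form TGTGGTT in 7.27% against 5.27%. The CRE form TGACGTCA and the MEF2 and CTCF consensus were found in 0 of the 55, against 1.79%, 3.19% and 0.335% of all windows. No test of these shares was made. Over 491 windows on intergenic peaks of both lists the 9-letter NF-kB form stood in 8.35%, the C/EBP form in 11.2% and the AP-1 form in 6.72%. There the PU.1 form stood in 7.94%, the IRF form in 10.8%, the PU.1-IRF form in 11.2% and the RUNX form in 5.91%. The longer NF-kB consensus stood in 4.28%, the MAF half-site in 5.91% and the CRE form in 1.22%. The MEF2 and CTCF consensus stood in 2.44% and 3.87%. A match describes letters and not a bound site, and these windows are starts of transcripts, so they do not stand for the other peaks.

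Across all 6475 peaks the level was low in vehicle and higher in IL-33, though under that of the median peak of the table. The library medians were 0.27 to 0.30 of the median over all peaks in vehicle and 0.51 to 0.57 in IL-33. The median peak had 3.20, 3.30, 2.85 and 3.21 tags in the vehicle libraries, in order, and 7.14, 4.13, 5.60 and 7.86 in those of IL-33. The library medians of the groups did not overlap, although IL-33 library 2 came close to the vehicle range. That library had 14.2% of its tags in peaks, the lowest of the 8, while the other libraries had 20.8% to 31.3%. After median-ratio scaling over all peaks the library medians were 2.91, 2.83, 3.25 and 2.90 in vehicle and 5.73, 6.77, 6.06 and 5.96 in IL-33, and library 2 was then the highest. As deposited, IL-33 library 4 was the highest of the 8 at 52.2% of the peaks and IL-33 library 2 the lowest of its group at 65.6%.

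**Figure D1:**
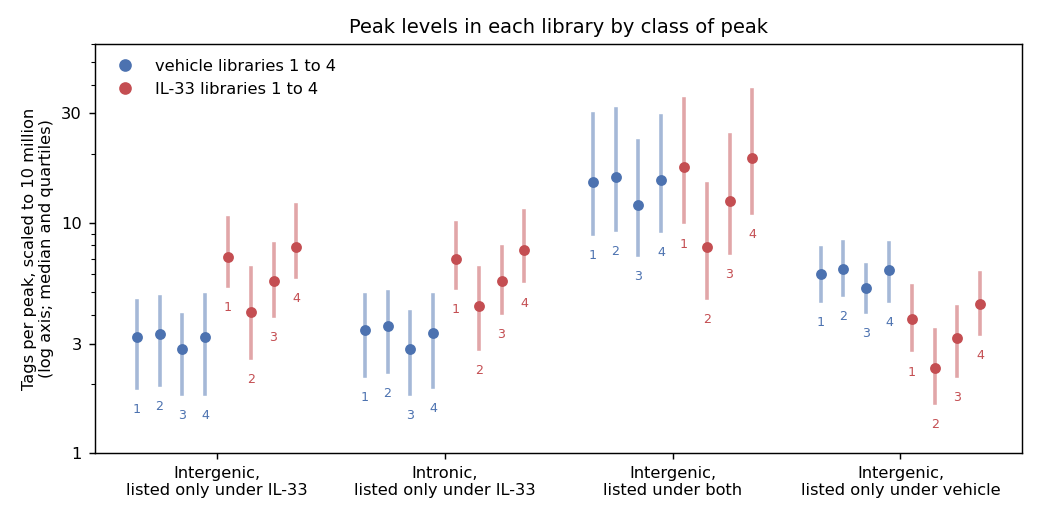
Tags per peak, scaled to 10000000 per library (log axis), in each library for 4 classes of peak; points are medians over peaks and bars run from the first to the last quartile. In the intergenic peaks listed only under IL-33 the vehicle medians lie at 2.85 to 3.30 tags and the IL-33 medians at 4.13 to 7.86.

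Vehicle libraries held tags at most of these peaks. The vehicle mean was under 1 tag at 286 peaks (4.42%), and between 1.70% and 4.71% of the peaks were at or under the floor of 3 reads in a vehicle library, 0.342 to 0.418 tags. The median of the IL-33 means was 6.05 tags, and at 363 peaks (5.61%) it was 20 tags or more and at 30 it was 50 or more. The IL-33 mean was at least 4 times that of vehicle at 1288 peaks (19.9%). At the other end, the IL-33 mean was not above the vehicle mean at 519 peaks (8.02%), and 38 peaks had a vehicle mean of 20 tags or more.

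The members were compared with 3 other classes only as a description, since each class was set by the same peak lists. Intronic peaks listed only under IL-33 (10603 peaks) had medians of 3.37 tags in vehicle and 6.005 in IL-33, close to those of the intergenic ones. Intergenic peaks of both lists (23504) had 14.4 and 14.2, and intergenic peaks listed only under vehicle (3244) had 5.81 and 3.61. The peaks listed only under IL-33 were thus weaker in both groups than the peaks of both lists. Their median length was 257 bp, against 278 bp for intergenic peaks of both lists, and the authors' peak score ran from 540 to 1000 with a median of 738.

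Levels were tested as log2(tags + 1.15) with limma over all peaks whose mean was not among the lowest 10% (94480 peaks, lowest mean 4.30 tags). Of the 6475 peaks, 4048 entered the test and 2427 fell under this filter. Of those tested, 1805 were called higher and 3 lower. Over all tested peaks 8.53% were called higher and 4.99% lower. Every IL-33 library lay above every vehicle library at 2322 of the 6475 peaks (35.9%), while 8.98% of all peaks showed this. Counts of peaks with groups apart, here and below, are in this direction. At 6 of the 6475 peaks every IL-33 library lay below every vehicle library. Nothing is read from these counts, because the lists that chose the peaks were made from the same comparison. The median log2 difference, on the log2(tags + 1.15) scale that understates weak peaks, was 0.72 over all 6475 peaks, with quartiles of 0.30 and 1.32. Untested peaks had a median of 2.37 tags in vehicle and 4.47 in IL-33, and groups did not overlap at 651 of them.

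Leaving out predicted, Rik and microRNA genes, the 10 peaks with the largest log2 differences, 1 per gene, were assigned to Maf, Dusp2, Poc1b, H2al1j, Cxcl16, Fam49a, Il10, Rnf145, Ets2 and Mefv, with log2 differences from 4.47 to 4.03. All had their groups apart, which the rule for naming them required. The Maf peak lay 314.3 kb downstream of the start (chr8:115392437-115392653). Maf encodes c-Maf, a bZIP factor of macrophage identity and of Il10 transcription. The peak had 0.77, 0.00, 1.14 and 0.56 tags in vehicle and 44.6, 20.9, 34.0 and 58.8 in IL-33. Vehicle libraries held at most 1.14 tags and the IL-33 libraries were spread over 20.9 to 58.8, a ratio of means of 64.1.

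The Dusp2 peak lay 13.1 kb upstream of the start (chr2:127322946-127323211). Dusp2 encodes a nuclear phosphatase that inactivates MAP kinases. It had 0.90, 2.38, 2.62 and 2.79 tags in vehicle and 83.6, 46.1, 57.7 and 87.5 in IL-33. The Il10 peak lay 26.9 kb downstream of its start (chr1:131046553-131046843) and had 0.77, 4.49, 5.70 and 3.63 tags in vehicle and 86.8, 48.7, 75.9 and 87.3 in IL-33. Il10 encodes an anti-inflammatory cytokine of macrophages. Vehicle libraries of both peaks stayed under 6 tags and IL-33 libraries above 46.

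The Cxcl16 peak, 8.13 kb upstream of a chemokine gene, had a mean of 2.21 ± 1.16 tags in vehicle and 57.5 ± 11.3 in IL-33 (SD, n = 4 each). The Ets2 peak, 26.5 kb downstream of the start of an ETS transcription factor gene, had 1.34 ± 1.03 and 40.2 ± 15.6 tags. The Mefv peak, 5.32 kb upstream of the gene for pyrin, an inflammasome sensor, had 1.63 ± 0.429 and 45.9 ± 15.6 tags. The peak assigned to Poc1b (25.3 kb upstream, a centriole protein gene) overlay an ERVL-E element and had 3.16 ± 1.05 and 86.6 ± 23.1 tags. Groups were apart at these 4 peaks, and IL-33 library 2 gave the lowest IL-33 value at each.

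**Figure D2:**
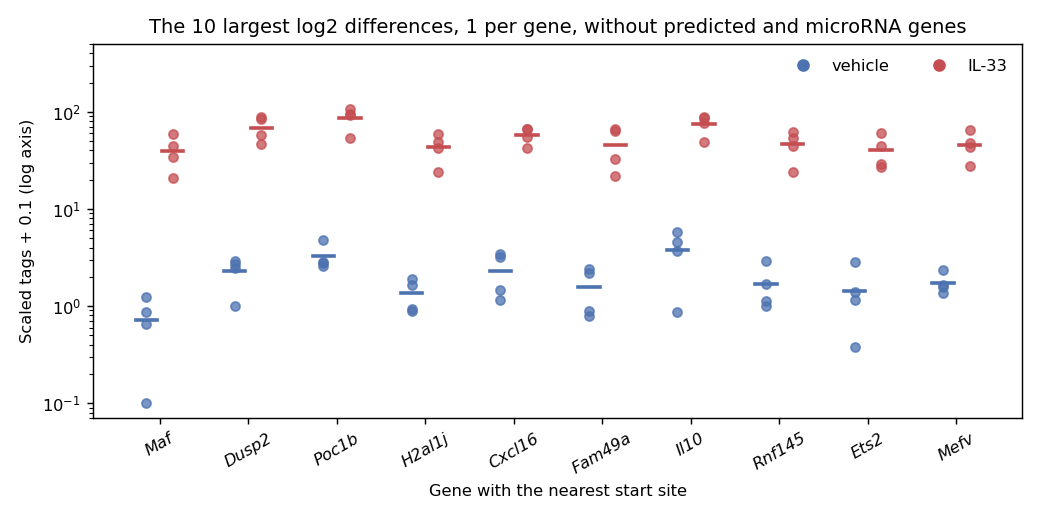
Scaled tags plus 0.1 (log axis) in each of 4 vehicle and 4 IL-33 libraries at the 10 peaks with the largest log2 difference, 1 per gene and without predicted, Rik and microRNA genes, named by the gene with the nearest start site; horizontal bars are group means. Every vehicle point lies under 6 tags and every IL-33 point above 20.

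The peak with the highest IL-33 mean among all 6475 lay 199.6 kb upstream of Marcks, a membrane-bound protein kinase C substrate. It had 24.3, 29.99, 22.0 and 22.9 tags in vehicle and 141, 66.7, 105 and 133 in IL-33. The second, assigned to Mir5129, had 2.55 ± 0.951 and 97.6 ± 35.1 tags, and its log2 difference of 4.70 was above that of the Maf peak. Both had their groups apart, but Marcks began from an already open vehicle level. The peaks ranked next were on an unplaced contig near Pisd-ps3, a pseudogene with close copies elsewhere, so reads may have been placed among copies and these values are uncertain. One of them had the highest vehicle mean of all 6475 peaks, 122 ± 9.45 tags, and 94.5 ± 30.3 in IL-33.

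The other peaks with the highest vehicle means were assigned to Gm6607, Cdk14, Plcxd1 and Dusp7, and at each the groups overlapped. Their IL-33 means were 36.9 to 64.5 tags and their vehicle means 45.8 to 71.1. These peaks are named in the IL-33 list alone although both groups held similar levels. The 3 lowest log2 differences among tested peaks, and the 3 called lower, were at Kcnk2 (-1.75), S1pr1 (-1.04) and Fxyd3 (-0.98). At Kcnk2, a potassium channel gene that is also on the list of homeostatic microglia genes, the peak had 22.1, 24.04, 15.2 and 17.7 tags in vehicle and 5.61, 2.71, 5.48 and 6.97 in IL-33, and the groups did not overlap.

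The peaks were assigned to 3475 genes. The nearest start lay at a median of 22.0 kb, 29.5% of the peaks were within 10 kb of it, 12.6% were beyond 100 kb and 67.8% were upstream. Intergenic peaks of both lists had much the same positions, with a median of 22.8 kb and 27.7% within 10 kb. The share of peaks with groups apart was 37.98% within 10 kb of a start and 36.9% from 10 to 50 kb. It was 34.0% from 50 to 100 kb and 29.7% beyond 100 kb. Over all members it was 35.9%, beside 8.98% of all peaks of the table. Differences between these distances were not tested. The farthest peak lay 1473 kb from the nearest start, that of D3Ertd751e; it fell under the filter, had a mean of 1.71 tags in vehicle and 5.51 in IL-33, and its groups overlapped.

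Of the 3475 genes, 2194 had 1 such peak, 1061 had 2 to 4 and 220 had 5 or more. Apart from predicted and microRNA genes, the most were at Maf (20), Marcks (19), Jun (16), Rbpj (15) and Tbl1xr1 (15). Jun encodes an AP-1 subunit, Rbpj the DNA-binding partner of Notch, and Tbl1xr1 a subunit of the NCoR corepressor complex. Summed over its 15 peaks, Rbpj had 31.2, 30.4, 27.4 and 35.2 tags in vehicle and 206, 128, 173 and 250 in IL-33. The groups lay far apart, a ratio of means of 6.10.

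At Jun the ratio of means was smaller, 1.89. Its 16 peaks summed to 82.8, 70.4, 73.0 and 68.9 tags in vehicle and 160, 77.1, 129 and 192 in IL-33. The sums overlapped through IL-33 library 2 alone, the library with the lowest share of its tags in peaks (14.2%). Sums were taken as deposited and not rescaled. Groups were apart at 3 of the 16 Jun peaks, 12 of 15 at Rbpj, 10 of 19 at Marcks, 7 of 15 at Tbl1xr1 and 5 of 20 at Maf, beside 35.9% of all 6475 peaks and 8.98% of all peaks of the table. Differences between loci were not tested. The Maf sum was 66.6 ± 5.74 tags in vehicle and 163 ± 55.6 in IL-33, and 1 peak, the one at 314.3 kb, supplied 39.6 of the IL-33 tags. The 5 Maf peaks nearest the start, out to 81.5 kb, had log2 differences from -0.11 to 0.16.

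The Mir146 locus was chosen for description after its values were seen, since microRNA genes were left out of the naming rule. Mir146 gives rise to miR-146a, which is induced by NF-kB and lowers the adaptors IRAK1 and TRAF6 of the interleukin-1 receptor family. Its mature forms on the minus strand of chromosome 11 are shown with the seed, bases 2 to 8, in capitals, since the seed pairs with targets (RefSeq, GRCm38.p6).
mmu-miR-146a-5p (chr11:43374435-43374456): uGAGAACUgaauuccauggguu
mmu-miR-146a-3p (chr11:43374399-43374420): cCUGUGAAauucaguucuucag

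Of the 33 peaks assigned to Mir146, 20 were listed only under IL-33 and intergenic. They stood in a run of 34.2 kb (chr11:43358810-43393021) on both sides of the annotated start. That start lies beside the mature forms shown above. Where the transcript that gives rise to miR-146a begins was not tested. Summed over the 20, tags were 52.7, 47.8, 51.5 and 44.2 in vehicle and 238, 153, 192 and 226 in IL-33. The groups did not overlap in this sum, nor at 18 of the 20 peaks. Groups were apart at 35.9% of all members, beside 8.98% of all peaks of the table. The level was modest at each peak: vehicle means ran from 1.11 to 5.76 tags and IL-33 means from 3.75 to 29.0. The highest, 5.12 kb downstream of the start and over an Lx8 element, had 3.84, 3.83, 3.65 and 4.60 tags in vehicle and 32.2, 16.0, 26.1 and 41.5 in IL-33.

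Of the 20 Mir146 peaks, 9 did not pass the filter on low values and 11 did. The 12 peaks of both lists at the locus were not chosen by the rule, and 3 of them were called higher and 0 lower (limma), where 4.25% and 4.48% of all tested peaks of both lists were called. The peak annotated as the Mir146 promoter was also in both lists. It had 12.4, 18.6, 10.9 and 13.7 tags in vehicle and 29.4, 10.7, 12.4 and 19.0 in IL-33. The groups overlapped, and the log2 difference of 0.26 (95% interval -0.40 to 0.92) did not pass (limma, adjusted p = 0.722). This label rests on the annotated start, so the values need not describe the promoter of the transcript that gives rise to miR-146a.

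**Figure D3:**
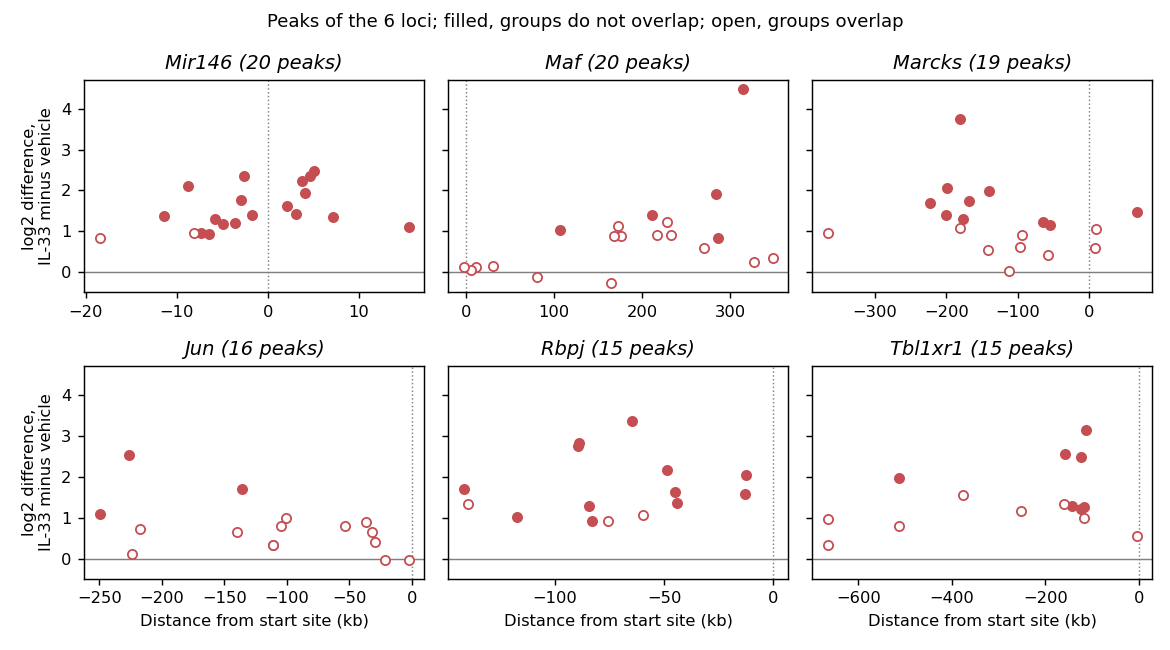
Log2 difference (IL-33 minus vehicle) against distance from the start site in kb for the intergenic peaks listed only under IL-33 at 6 loci; filled points are peaks where no vehicle library reached any IL-33 library. At Mir146 18 of 20 are filled, within 20 kb of the start, and at Maf 5 of 20, the highest of them at 314.3 kb. Groups are apart in this way at 35.9% of all members and 8.98% of all peaks of the table.

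Such runs of neighbouring peaks were found elsewhere. Joining peaks with gaps of at most 10 kb gave 4706 groups, of which 3650 were single peaks and 379 held 3 or more peaks, 1471 peaks in all (22.7%). Near Ccl12, a chemokine for monocytes, 8 peaks stood in 8.90 kb with medians of 1.64 tags in vehicle and 14.9 in IL-33. Near Tnip1, an inhibitor of NF-kB signalling, 7 stood in 10.9 kb with medians of 2.59 and 14.1. Of the 23504 intergenic peaks of both lists, 69.0% had another of their class within 10 kb, against 43.6% of the 6475 listed only under IL-33. The share was 50.5% for the 10603 intronic peaks listed only under IL-33 and 19.4% for the 3244 intergenic ones listed only under vehicle. The part of class size in these shares was not tested.

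Gene lists are given from receptor to target. In the IL-33 receptor pathway 19 peaks were members, 7.17% of the list's peaks, against 6.17% of all peaks. Groups were apart at 7 of the 19 (36.8%), beside 35.9% of all members and 8.98% of all peaks. The 2 largest differences lay 72.9 kb downstream of Map3k8, a MAP kinase kinase kinase, and 17.0 kb upstream of Il1rl1, which encodes the IL-33 receptor subunit ST2. The Il1rl1 peak had 2.69, 1.32, 2.39 and 3.49 tags in vehicle and 14.9, 12.03, 10.8 and 27.1 in IL-33. Both lay over L1_Mus3 elements, and reads on such repeats can be placed among copies.

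The share of a list's peaks that were members was 26.99% for cytokines and chemokines (78 peaks), 16.5% for AP-1 and immediate-early factors (76), 15.1% for the NF-kB pathway (57), 15.1% for feedback genes (57) and 12.98% for pattern recognition (44). It was 10.5% for lineage and bZIP factors (82), 10.3% for activation and phagocytosis (30), 11.1% for complement (10), 4.71% for homeostatic microglia genes (28) and 3.38% for interferon response genes (5). Groups were apart at 57 of the 78 cytokine and chemokine peaks, at 44 of 57 NF-kB peaks and at 34 of 57 feedback peaks. They were apart at 31 of 76 AP-1 peaks, at 26 of 44 pattern recognition peaks and at 33 of 82 lineage and bZIP peaks. Activation and phagocytosis had 14 of 30 peaks apart, complement 3 of 10, homeostatic genes 6 of 28 and interferon response 1 of 5. The homeostatic Kcnk2 peak, apart with IL-33 lower, is not among the 6. Over all members the share was 35.9%, beside 8.98% of all peaks. The median log2 difference was 1.71 for NF-kB, 1.62 for cytokines and chemokines, 0.32 for homeostatic, 0.55 for complement and 0.44 for interferon peaks, against 0.72 over all members. It was 1.46 for pattern recognition, 1.13 for feedback, 0.85 for lineage and bZIP and 0.80 for AP-1 peaks. Activation and phagocytosis peaks had 0.69 and IL-33 receptor pathway peaks 0.66. No test of these differences was made.

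Within the NF-kB list, peaks belonged to 12 of 26 genes, with 12 at Nfkbiz, 11 at Tnfaip3, 10 at Nfkbia and 7 at Tnip1, all of which encode regulators or inhibitors of the pathway. The Tnip1 peak at 9.62 kb had 0.26, 0.66, 0.11 and 1.39 tags in vehicle and 29.4, 20.4, 23.4 and 29.9 in IL-33. The Birc3 peak, at a ubiquitin ligase gene of the pathway, had 1.15, 1.19, 1.25 and 0.00 in vehicle and 39.0, 12.7, 19.5 and 45.3 in IL-33. All IL-33 libraries lay above all vehicle libraries at both. Peaks named from the lists, here and below, had the largest log2 difference of their gene among tested members. That choice favours groups apart, so nothing is read from it.

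In the cytokine list peaks belonged to 22 of 34 genes with a peak, led by Ccl12 (10), Il10 (9), Ccl2, Il12b and Il1b (6 each). The Ccl12 peak at 3.02 kb had 2.05, 3.96, 0.91 and 0.84 tags in vehicle and 53.7, 22.6, 47.1 and 36.6 in IL-33. Among pattern recognition genes, the Tlr2 peak 3.38 kb upstream of the gene for a receptor of bacterial lipoproteins had 4.35, 1.72, 1.25 and 2.09 in vehicle and 51.1, 18.5, 36.9 and 52.0 in IL-33. Fpr2 and Fpr1, receptors for formyl peptides, had 1.01 ± 1.24 and 0.425 ± 0.510 tags in vehicle and 12.8 ± 5.30 and 9.18 ± 4.47 in IL-33. Groups were apart at each of these 4 peaks, chosen by the same rule.

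Among transcription factor genes, the Fos peak at 50.8 kb had 2.83 ± 0.603 tags in vehicle and 25.8 ± 5.90 in IL-33, and the Jun peak at 226.4 kb 1.60 ± 0.682 and 15.02 ± 4.95. The Irf8 peak, 10.9 kb upstream of a factor that macrophages need, had 2.50 ± 1.22 and 30.3 ± 11.7. Among feedback genes, the Socs3 peak at 8.71 kb, near a suppressor of cytokine receptor signalling, had 0.64, 1.85, 0.68 and 5.44 tags in vehicle and 39.9, 19.3, 24.8 and 32.8 in IL-33. No vehicle library reached an IL-33 library at these 4 peaks, which were chosen for the largest log2 difference of their gene.

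In the homeostatic list the Kcnk2 peak given above was the lowest of the tested members, with a log2 difference of -1.75. Of the 16 tested peaks 3 were called higher (18.75%), beside 44.6% of all tested members and 8.53% of all tested peaks. The count was 6 with median-ratio scaling and 7 without IL-33 library 2. The Trem2 peak 8.48 kb upstream, near a lipid receptor gene of microglia, had 1.77 ± 1.02 tags in vehicle and 7.04 ± 1.29 in IL-33. The C1qb peak, near a gene of complement component C1q, had 2.68 ± 0.468 and 6.84 ± 0.863. The Ifnb1 peak had 8.57, 2.25, 1.71 and 3.77 tags in vehicle and 7.27, 2.24, 4.33 and 8.87 in IL-33, and its groups overlapped.

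Repeats underlay 29.1% of the peaks, against 20.5% of intergenic peaks of both lists, 24.8% of those listed only under vehicle and 2227 of the 10603 intronic ones listed only under IL-33. LTR elements accounted for 14.1% of the peaks, LINE for 6.19% and SINE for 5.90%, and ERVL-MaLR was the commonest family with 496 peaks. Groups were apart at 34.8% of the LTR peaks, 39.4% of the LINE peaks and 27.7% of the SINE peaks, against 37.0% of peaks on no annotated element. Of the 67 peaks on CpG islands 6 had groups apart (8.96%), with medians of 4.97 tags in vehicle and 5.72 in IL-33. The share with groups apart was 35.9% over all members, beside 8.98% of all peaks of the table. The part of peak level and of read placement on repeats in these shares was not tested.

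Peaks of both lists were not chosen by the rule, and their calls were read by distance from the nearest of the 6475 peaks. They came from the same 8 libraries. Over all tested peaks of both lists 4.25% were called higher and 4.48% lower. Within 1 kb of an intergenic peak listed only under IL-33 the shares were 11.5% and 1.99% of 2112 peaks. Within 10 kb 920 of 11520 rose (7.99%) and 329 fell (2.86%), and beyond 100 kb 2.95% of 34277 rose and 5.47% fell. With intergenic peaks alone the share called higher ran from 11.8% within 1 kb to 2.0% beyond 100 kb. The median log2 difference within 1 kb was -0.02, against -0.18 over all tested peaks of both lists.

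In each of 17 settings of the fit the share called higher was larger within 10 kb than beyond 100 kb and the share called lower was smaller. The size depended on scaling: with median-ratio scaling 17.9% within 10 kb were called higher and 8.76% lower, and beyond 100 kb 7.77% and 12.6%. Without IL-33 library 2 the share called higher within 10 kb was 16.0%. Spread of tags from a peak into a close neighbour was not tested.

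**Figure D4:**
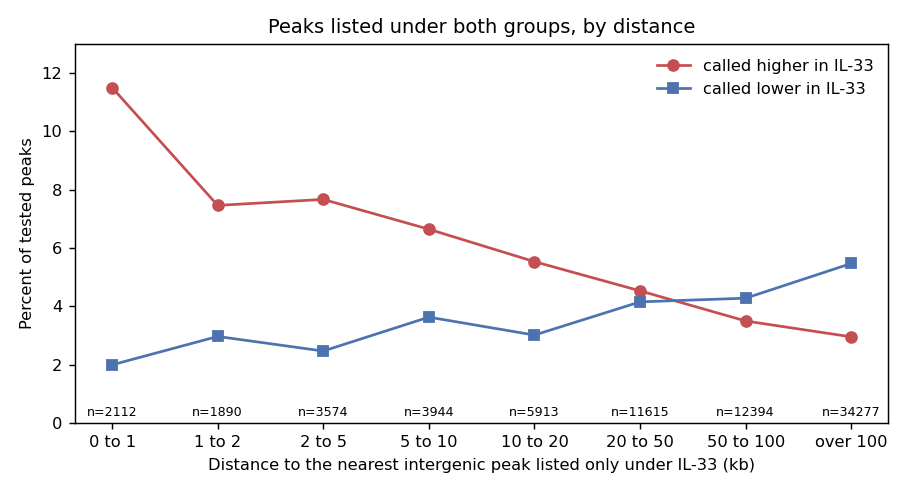
Percent of tested peaks of both lists called higher or lower in IL-33 (limma, adjusted p under 0.05) by distance in kb to the nearest intergenic peak listed only under IL-33; n is the number of peaks tested. The share called higher goes from 11.5% within 1 kb to 2.95% beyond 100 kb, and the share called lower from 1.99% to 5.47%.

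Promoter peaks of the assigned genes were read from the same fit. Over all tested promoter peaks 2.45% were called higher and 1.28% lower. Among genes with at least 1 intergenic peak listed only under IL-33, 144 of 3113 promoter peaks rose (4.63%) and 48 fell (1.54%). The share called higher was 1.89% with no such peak, 3.77% with 1, 5.41% with 2 to 4 and 7.95% with 5 or more. Promoter peaks listed only under IL-33 share the rule's peak lists, so the count was repeated on promoter peaks of both lists. There the shares called higher were 0.83%, 1.85%, 3.41% and 5.66%, and those called lower 1.09%, 1.14%, 2.20% and 1.89%. The part of the number of peaks per gene, and the differences between the shares, were not tested.

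The median promoter log2 difference was -0.22 with no such peak and -0.17 with 5 or more, against -0.14 for all tested peaks. Under all 17 settings promoter peaks of genes with such a peak were called higher more often than those without. The balance of calls changed with scaling: with median-ratio scaling 9.03% of the promoter peaks of genes with such a peak were called higher and 7.90% lower, against 4.64% and 5.73% of those without. Without IL-33 library 2, 244 were called higher.

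**Figure D5:**
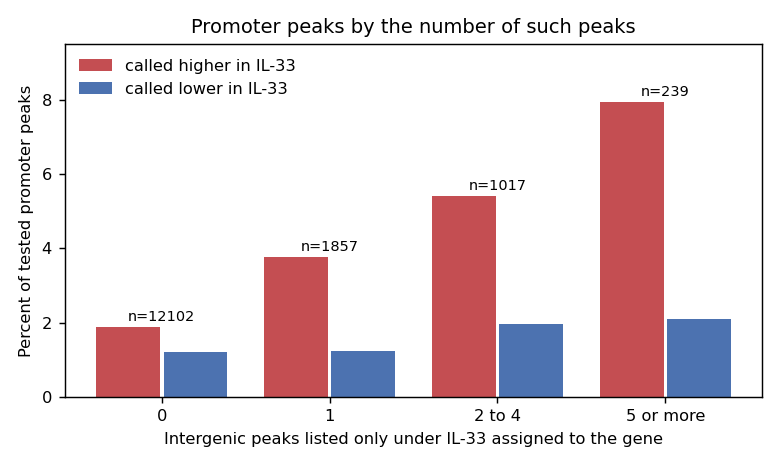
Percent of tested promoter peaks called higher or lower in IL-33 (limma, adjusted p under 0.05) by the number of intergenic peaks listed only under IL-33 that are assigned to the same gene; n is the number of promoter peaks tested. The share called higher is 1.89% for 0 and 7.95% for 5 or more, and the share called lower 1.21% and 2.09%.

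Of the named genes with many or strong intergenic peaks, 11 had a tested promoter peak. Only the highest such peak of each gene was read, and 0 of the 11 were called (limma). Over all tested promoter peaks the shares called were 2.45% higher and 1.28% lower. The 11 include the Mir146 peak that carries this annotation. At Maf the promoter had 60.1, 60.6, 50.7 and 55.9 tags in vehicle and 62.2, 26.1, 51.1 and 57.4 in IL-33, a log2 difference of -0.27 (95% interval -0.93 to 0.39, limma, adjusted p = 0.709). At Rbpj it had 170 ± 28.4 tags in vehicle and 158 ± 42.3 in IL-33, a log2 difference of -0.13 (interval -0.79 to 0.53, limma, adjusted p = 0.858). The groups overlapped at both, and the intervals do not show that these promoters stayed the same.

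The Dusp2 promoter differed more. It had 78.4, 74.6, 54.8 and 76.9 tags in vehicle and 159, 83.6, 119 and 140 in IL-33, and its groups did not overlap. Its log2 difference was 0.78 (interval 0.12 to 1.45, limma, adjusted p = 0.114). The test was passed after median-ratio scaling (limma, adjusted p = 0.000834) and with IL-33 library 2 left out (limma, adjusted p = 0.00646). Over the 17 settings, limma and edgeR, the adjusted p ran from 4.54e-09 to 0.295. The Dusp2 peak 13.1 kb upstream had a ratio of means of 31.6.

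The largest promoter differences among genes with such a peak were at Zfp811, Il12b and Acod1, and all 3 promoter peaks were themselves listed only under IL-33, so they are described without a test. Il12b encodes the p40 subunit shared by interleukin-12 and interleukin-23, and Acod1 makes itaconate in macrophages. The Il12b promoter had 0.77, 0.92, 1.82 and 1.12 tags in vehicle and 23.97, 12.7, 20.4 and 19.1 in IL-33, and 6 of the gene's peaks were members. The Acod1 promoter had 2.56, 0.26, 0.57 and 0.14 tags in vehicle and 20.5, 7.90, 9.04 and 24.9 in IL-33. The groups did not overlap at either. Both promoter sequences are shown (RefSeq, GRCm38.p6, plus strand). The Acod1 sequence held 1 match to the NF-kB form GGNNTTTCC, in capitals, and the Il12b sequence held none of either NF-kB form.
Il12b (chr11:44399813-44400062): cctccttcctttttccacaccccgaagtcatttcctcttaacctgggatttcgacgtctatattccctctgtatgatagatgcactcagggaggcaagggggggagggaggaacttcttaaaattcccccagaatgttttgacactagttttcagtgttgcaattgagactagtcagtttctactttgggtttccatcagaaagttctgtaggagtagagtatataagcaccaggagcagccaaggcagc
Acod1 (chr14:103046762-103047011): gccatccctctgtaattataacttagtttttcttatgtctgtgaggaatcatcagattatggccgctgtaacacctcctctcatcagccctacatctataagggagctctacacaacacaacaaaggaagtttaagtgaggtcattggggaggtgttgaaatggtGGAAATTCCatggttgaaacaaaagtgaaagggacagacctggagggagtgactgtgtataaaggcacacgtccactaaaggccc

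As a check of the cell label, 9 of 10 microglia marker genes had a promoter peak, with sums of 562 to 809 tags in vehicle and 328 to 708 in IL-33; Csf1r had none. None of the 3 monocyte markers had one (0 of 3), and neutrophil and lymphocyte sums reached at most 7.78 and 6.97 tags in a library. Astrocyte sums ran from 7.20 to 33.2 tags over the 8 libraries, oligodendrocyte sums from 17.1 to 41.1, endothelial sums from 7.31 to 22.6 and neuron sums from 4.72 to 9.76, with promoter peaks at 2 of 4, 2 of 4, 1 of 4 and 1 of 4 genes. The part of these cells in the results was not tested. Border macrophage markers had 2 of 4 promoter peaks, with sums of 44.1 to 74.1 in vehicle and 28.4 to 73.8 in IL-33. Library totals were 35842688 to 43857673 tags. Each library was bulk DNA of sorted cells, so a site open in more cells and a site more open in each cell cannot be told apart.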

How the data were processed

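ATAC-seq libraries of cortical microglia from 8 mice, 4 per group, were compared. Per the file headers, the authors used HOMER (mm10) to count up to 3 tags at a position over each peak of a merged list of reproducible peaks, and the deposited values are a signal scaled to 10000000 tags per library. Bowtie2, HOMER and DESeq2 appear, without roles, in the submitters' processing notes. For trimming, duplicates and a transposase shift, the sources used here give no handling. The authors' deposited score of each peak was used only to describe peaks and for 1 alternative. Every value was a whole number of reads within 0.006 tags (100% of values), and floors (3 reads) cover counting error only. Intervals of log2 differences come from limma's spread between libraries.

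Columns name the group but not the mouse, so sex was not fitted. Members and lists were chosen with earlier results of these data known. The main fit was limma 3.58.1 in R 4.3.3 on log2(tags + 1.15), two-sided, with no trend in the empirical Bayes step, Benjamini-Hochberg adjustment and a threshold of 0.05. The pseudocount was set at 10% of 11.5 tags, the median over peaks of their means. The lowest 10% of peaks by mean were left out (10501 peaks). limma gave every peak the same standard error, 0.34, so very small p-values should not be read literally. The script was tested on simulated data. Alternatives were median-ratio scaling (DESeq2 1.42.0), equal sums, pseudocounts of 0.5 and 5, no filter, a trend, edgeR 4.0.16 on the recovered reads, and leaving out each library.

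Named peaks were the 10 largest log2 differences, 1 per gene, among called peaks with groups apart; the 5 highest means in each group; the 3 lowest differences; the 3 farthest from a start; the 5 genes with most members; up to 3 genes of each of 11 lists; and the 3 largest promoter differences. From each list the genes, and the peak of each, were those with the largest log2 differences among tested members. Predicted, Rik and microRNA genes were left out of the choices per gene but not of the peaks named for their level, such as those at Mir5129 and Gm6607. The Mir146 locus, the runs of peaks, the bins of distance and number, the motifs shown and the choice of printed sequences were settled after values were seen. Sequences came from RefSeq (GRCm38.p6); peaks outside its promoter windows were not read, so the planned printing of the first named peaks was not done. Coordinates are those of the deposited table or of RefSeq windows.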

Additional observations from a re-analysis of the deposited data

Results flagged for a closer look

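Of 184 groups of 4 libraries examined, 8 held a library far from the other 3 by Dixon's criterion at 95%, where chance flags about 1 in 20 groups. In vehicle, library 1 was high at the Poc1b peak (4.73 tags, others 2.51 to 2.74), library 2 at the Nfkbia peak (4.49, others 1.02 to 1.26) and library 3 at the Fpr2 peak (2.85, others 0.13 to 0.56). Vehicle library 4 was low at the Birc3 peak (0.0 tags, others 1.15 to 1.25) and vehicle library 3 at the Dusp2 promoter (54.84, others 74.64 to 78.41). In IL-33, library 4 was high at the S1pr1 peak (15.85 tags, others 7.13 to 7.55), library 1 was high at a Mir146 peak (8.8, others 3.57 to 4.06) and library 2 was low at another Mir146 peak (7.43, others 10.83 to 11.22). The S1pr1 peak is called lower in IL-33, and its groups overlap through that library.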

How the results depend on the processing

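Precision was limited by 4 libraries a group and by low levels, with a vehicle median of 3.30 tags. No paired analysis was possible because the labels number the mice across both groups and the columns do not name them. The motif search in the central 200 bp was not run. The median log2 difference of all tested peaks was -0.14 as deposited, -0.05 with median-ratio scaling and -0.04 with equal sums. Members called higher (1805) became 2231 and 2247 with these scalings, 2272 in edgeR with TMM, 1810 in edgeR with total tags (added after seeing the data), 2638 without a filter, 1459 with a pseudocount of 5 and 1556 to 2354 leaving out 1 library. The median log2 difference of tested members (0.78) was 0.50 with a pseudocount of 5 and 0.67 to 0.94 leaving out 1 library. Neighbours within 10 kb called higher (920) numbered 2067 with median-ratio scaling, 2125 with equal sums, 2407 in edgeR with TMM, 647 to 1838 leaving out 1 library (1838 without IL-33 library 2), and 1773 within 50 kb. Promoters called higher (144) numbered 281, 294, 349 and 110 to 244 in the same order (244 without IL-33 library 2). Members with groups apart (2322) numbered 2403 to 3319 with 1 library fewer, a weaker condition, and near-silent members (286) 286 to 341.

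Some small differences changed sign; the cause was not tested. Leaving out 1 library, log2 differences ran from -0.49 to 0.016 at the Gm6607 peak, -0.28 to 0.21 at Cdk14 and -0.12 to 0.65 at Adgrl2. At promoters they ran from -0.41 to 0.00021 at Maf, -0.25 to 0.057 at Rbpj and -0.40 to 0.012 at Tbl1xr1. They ran from -0.27 to 0.17 at the Fam49a promoter and -0.0013 to 0.45 at the peak annotated as the Mir146 promoter. Signs changed without IL-33 library 2 at Gm6607, Cdk14, Maf, Rbpj, Tbl1xr1 and Fam49a, without IL-33 library 4 at Adgrl2 and without IL-33 library 1 at Mir146. Cdk14 also changed without IL-33 library 3 (0.035) and vehicle library 1 (0.024), and was at 0.073 with equal sums and 0.058 with median-ratio scaling, and the Fam49a promoter at 0.023 in edgeR with TMM and 0.0045 with equal sums. The settings for promoters were added after seeing the data.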
